A study of Mus musculus with 2 samples.

Results

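The genes described here cut, carry and load peptides for MHC class I molecules: B2m, Tap1, Tap2, Tapbp, Psmb8, Psmb9, Psmb10, Psme1, Psme2 and Erap1. They were taken as a named list, with every probe set that the array's annotation ties to 1 of them by symbol or gene ID. This list, and the lists it is compared with, were chosen with earlier results of these data known. Of these 10 genes, 9 have at least 1 probe set of their own on the array (16 in all), among 18193 such genes. Psme2 has none, because its 1 probe set also lists Psme2b. Total RNA came from whole livers of 12-week-old male mice on chow diet that were fasted for 6 hr. Both groups carried homozygous floxed Lpcat3 alleles (Lpcat3fl/fl). Flox/Flox mice had no Cre, and L-Lpcat3 KO mice also carried the Albumin-Cre transgene, whose promoter is active in hepatocytes, so that Kupffer and endothelial cells keep the gene. RNA of 5 mice was pooled per genotype and each pool was read on 1 Affymetrix Mouse Genome 430 2.0 array. Each value is therefore 1 measurement with no replicate, and no p-value or standard error can be given.

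Class I molecules show the immune system short peptides from proteins made inside a cell. The proteasome cuts these proteins, the TAP transporter carries the peptides into the endoplasmic reticulum, aminopeptidases trim them there, and a loading complex fits them into a heavy chain bound to β2-microglobulin. Interferon-γ raises most of these genes, and it swaps the 3 catalytic subunits of the proteasome for immunosubunits. In liver, hepatocytes, Kupffer cells and sinusoidal endothelial cells all carry class I molecules. Lpcat3 places polyunsaturated chains into phosphatidylcholine, and the arrays were run to compare liver RNA with and without it in hepatocytes.

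By the brightest probe set of each, all 9 genes with a probe set of their own were slightly lower in the L-Lpcat3 KO pool. None of them reached a 1.5-fold difference in either direction. Log2 ratios (L-Lpcat3 KO against Flox/Flox) ran from -0.34 for Psmb8 to -0.05 for Psme1, with a median of -0.18. A second probe set of Erap1 was higher in L-Lpcat3 KO (0.24), so the direction of that gene is not settled. The median over all 12084 genes measured was 0.00. A gene counts as measured if a probe set lies above a floor, the median signal of the array (76.4 units), in at least 1 pool. Of all genes measured, 49.3% had a log2 ratio below 0, as did 51% of the 7025 brighter genes, which lay above the floor in both pools and whose mean signal was above the 75th percentile (387). At 1.5-fold, 3.14% of all genes were lower and 4% were higher, against 0 of 9 here in both directions. Markers of Kupffer cells and macrophages were lower as well (13 of 13 below 0, median -0.30). In whole liver, fewer cells of a type and less RNA per cell cannot be told apart. Lpcat3 itself was 3310 in Flox/Flox against 1305 in L-Lpcat3 KO (2.54-fold lower) by its 1 probe set, and whether that probe set reads RNA outside the deleted part was not examined here.

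The immunosubunits form the cutting sites of the immunoproteasome. Psmb8, which encodes the chymotrypsin-like subunit LMP7, had a signal of 1198 in the Flox/Flox pool and 948 in the L-Lpcat3 KO pool. This 1.26-fold lower signal was the furthest from 0 of all the class I processing genes, and 4.73% of the 7025 brighter genes had a lower ratio. Psmb10, which encodes MECL-1, was 1891 in Flox/Flox against 1584 in L-Lpcat3 KO (log2 ratio -0.26, 1.19-fold lower). Psmb9, which encodes LMP2, differed less, with 763 and 708 (1.08-fold lower, log2 ratio -0.11). A second probe set of Psmb8 lay below the floor in both pools (56.4 and 26.8) and gives no ratio.

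Each immunosubunit takes the place of a constitutive subunit, and the constitutive subunits lay closer to 0 or above it. Psmb5, which Psmb8 replaces, was 5850 in Flox/Flox against 5808 in L-Lpcat3 KO (log2 ratio -0.01). Psmb6, which Psmb9 replaces, was 5868 and 5796 (-0.02). Psmb7, which Psmb10 replaces, was 7341 and 8176, higher in L-Lpcat3 KO (0.16). The log2 ratio of the immunosubunit was thus below that of its counterpart in 3 of 3 pairs, with differences of log2 ratios of -0.33 for Psmb8, -0.09 for Psmb9 and -0.41 for Psmb10. Part of the last difference comes from the higher signal of Psmb7. A difference of this kind cannot be shifted by the scaling of an array as a whole, although each side of it rests on 1 probe set in 2 pools. Between 2 bright probe sets of 1 gene, log2 ratios differed by a median of 0.15, and in 1 gene of 10 by more than 0.42. All 3 differences were smaller in size than 0.42, and that of Psmb9 was smaller than 0.15. How often other pairs of genes differ by as much was not counted.

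**Figure D1:**
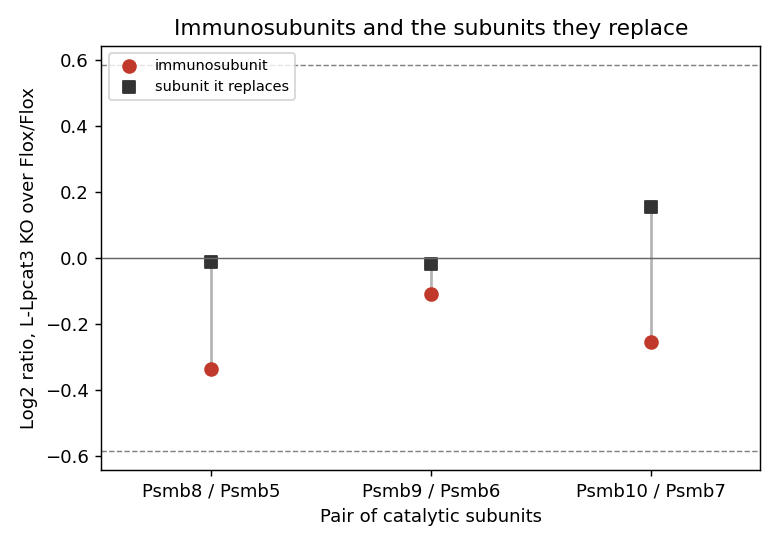
Log2 ratio of signal (L-Lpcat3 KO against Flox/Flox, y axis) for the 3 immunosubunits (red circles) and the constitutive subunit each replaces (black squares), by pair (x axis). Dashed lines mark 1.5-fold; the immunosubunit lies lower in each pair, with Psmb8 at -0.34 against -0.01 for Psmb5, Psmb9 at -0.11 against -0.02 for Psmb6, and Psmb10 at -0.26 against 0.16 for Psmb7.

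Psme1 and Psme2 encode both kinds of subunit of PA28, a ring that opens the proteasome and that interferon-γ also raises. Psme1 was 5475 in Flox/Flox against 5275 in L-Lpcat3 KO, and its log2 ratio of -0.05 was the closest to 0 of the 9 genes. The probe set listing both Psme2 and Psme2b was 2698 and 2755 (log2 ratio 0.03). This signal cannot be assigned to either gene and it was kept out of the counts.

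Tap1 and Tap2 together form the transporter that moves peptides from the cytosol into the endoplasmic reticulum. Tap1 was 650 in Flox/Flox against 575 in L-Lpcat3 KO (log2 ratio -0.18, 1.13-fold lower). Tap2 was 274 and 233 (1.18-fold lower, -0.24), the dimmest signal among the brightest probe sets of these genes. Both subunits were thus lower by a similar step. The other 3 probe sets of Tap1 were below the floor in both pools, with signals of 13.7 and 55.4, 12.9 and 38.0, and 3.08 and 8.22 in Flox/Flox and L-Lpcat3 KO.

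Tapbp encodes tapasin, which bridges the transporter and the empty class I molecule. It was 4328 in Flox/Flox against 4155 in L-Lpcat3 KO by its brighter probe set (log2 ratio -0.06) and 261 and 254 by the other (-0.04), so both placed it close to 0. Erap1 encodes the aminopeptidase of the endoplasmic reticulum that trims peptides to the length the groove holds, and its probe sets went opposite ways. The brighter one was 1737 in Flox/Flox against 1516 in L-Lpcat3 KO (-0.20), and the dimmer one 763 and 900 (0.24). The direction of Erap1 therefore depends on the probe set.

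B2m encodes β2-microglobulin, the light chain shared by class I molecules. Its 2 probe sets were 34774 and 30889 in Flox/Flox, against 30600 and 27768 in L-Lpcat3 KO. Both were lower, with log2 ratios of -0.18 and -0.15. In Flox/Flox, 0.157% of all probe sets were brighter than the brighter one, and whether signals this high level off was not tested.

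Counted by probe set, 12 of the 16 were measured and 11 of these had a log2 ratio below 0, against 49.3% of all 20650 probe sets measured. None was 1.5-fold lower, against 3.62% of all. The median over the 12 was -0.17, and over all measured probe sets 0.00. The exception above 0 was the dimmer probe set of Erap1.

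**Figure D2:**
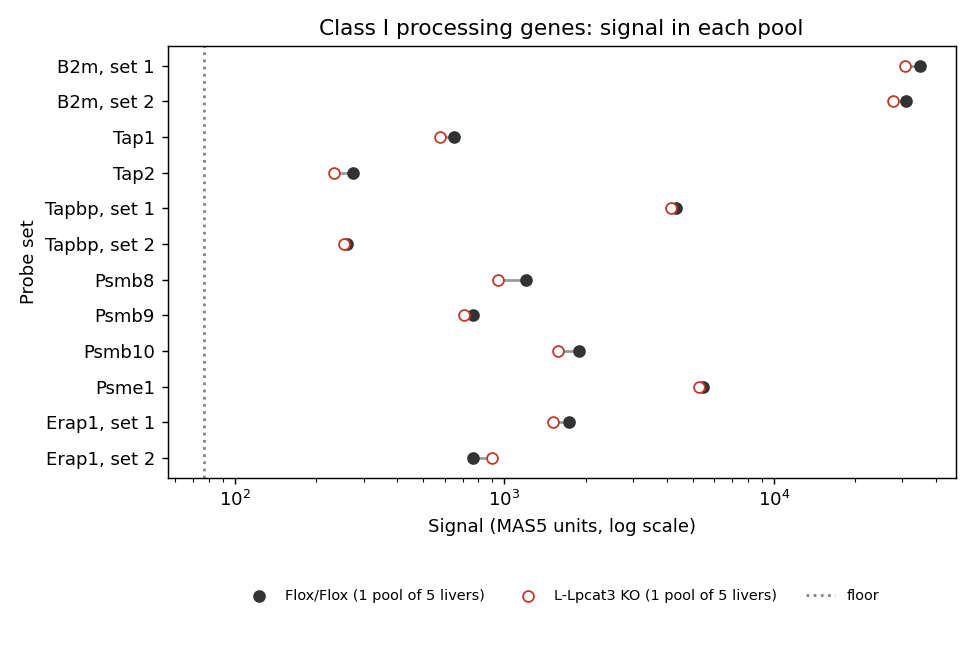
Signal in MAS5 units (x axis, log scale) of the 12 measured probe sets of 9 class I processing genes (y axis) in Flox/Flox (filled) and L-Lpcat3 KO (open), 1 point for each pool of 5 livers; the dotted line is the floor of 76.4. Open points lie to the left of filled ones for 11 probe sets, by small steps, and the second probe set of Erap1 (763 and 900) runs the other way.

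Agreement between probe sets of 1 gene was used as a gauge of error, since no array was repeated. Over 2228 genes with 2 probe sets above the 75th percentile, the log2 ratios of the 2 brightest differed by a median of 0.15, and in 1 gene of 10 by more than 0.42. The class I processing genes with 2 such probe sets were B2m, whose ratios differed by 0.03, and Erap1, whose ratios differed by 0.44. All 9 genes had log2 ratios smaller in size than 0.42, and so did the central 90% of the 7025 brighter genes. That central range ran from -0.33 to 0.33, and Psmb8 was the 1 class I processing gene outside it. This gauge covers probe sets and not mice.

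Psmb9, Tap1, Psmb8 and Tap2 are neighbours in that order on chromosome 17, inside the MHC, and Psmb9 and Tap1 start on opposite strands from a shared stretch of DNA. Of the 10 genes, all but Tap2 matched a promoter window in RefSeq (GRCm38.p6), running from 250 bases before the start to 50 after it. Both strands were searched for 3 motifs tied to class I and interferon control. The core of the interferon-stimulated response element was taken as GAAA, any 2 bases and GAAA again; the interferon-γ activated site was TTCNNNGAA; and the CCAAT box, bound by NF-Y, was CCAAT. Over all 32851 promoter windows, 3.44% held the response element core, 8.3% the activated site and 37.4% the CCAAT box. The core was present in B2m, Erap1 and Psme1 (3 of 9), the activated site in Psmb8 (1 of 9), and the CCAAT box in B2m, Psmb9, Tap1 and Tapbp (4 of 9; Psmb9 and Tap1 share theirs). Of the interferon-inducible GTPases, 8 of the 9 with a window held the core and 5 the activated site.

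The sequences printed here show where these letters lie in the stretch shared by Psmb9 and Tap1, in the promoters of Psmb8, the gene furthest from 0, and of B2m, and for comparison in that of the GTPase gene Igtp. Each is written 5′ to 3′ and ends at the base before the start of the gene (of Tap1 in the first), and capitals mark the motifs. The first lies between the starts of Psmb9 and Tap1 on the strand of Tap1 (chr17:34187331-34187555, plus strand, 225 bases). The others hold 150 bases each, for Psmb8 (chr17:34198045-34198194, plus strand), B2m (chr2:122147537-122147686, plus strand) and Igtp (chr11:58199406-58199555, plus strand).
Psmb9 and Tap1: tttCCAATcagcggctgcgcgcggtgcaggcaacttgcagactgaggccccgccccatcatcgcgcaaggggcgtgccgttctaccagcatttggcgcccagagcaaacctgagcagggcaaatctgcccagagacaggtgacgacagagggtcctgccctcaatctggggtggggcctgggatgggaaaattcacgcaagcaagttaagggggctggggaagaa
Psmb8: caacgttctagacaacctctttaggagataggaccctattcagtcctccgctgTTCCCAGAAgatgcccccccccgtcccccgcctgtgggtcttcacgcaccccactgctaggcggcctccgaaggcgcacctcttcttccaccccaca
B2m: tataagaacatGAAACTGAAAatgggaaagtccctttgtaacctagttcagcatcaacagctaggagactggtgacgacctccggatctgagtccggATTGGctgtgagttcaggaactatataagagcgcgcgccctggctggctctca
Igtp: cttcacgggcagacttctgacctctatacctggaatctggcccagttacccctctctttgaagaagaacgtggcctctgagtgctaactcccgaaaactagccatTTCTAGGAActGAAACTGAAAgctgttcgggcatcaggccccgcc

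B2m and Igtp held the same 10 letters of the response element core, at position -139 and -34 from their starts. The log2 ratio of B2m was -0.18, and Igtp, which encodes an immunity-related GTPase, was 3158 in Flox/Flox against 1725 in L-Lpcat3 KO (-0.87). The matches shown do not overlap. A match is a run of letters and not a measured binding site, and a window without one says nothing of the factor.

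Heavy chains, which bind β2-microglobulin and the peptide, were lower by a similar step. Of 18 such genes, 8 had a probe set of their own and 5 were measured, and all 5 had a log2 ratio below 0 (median -0.17, from -0.20 to -0.08). The brightest were H2-K1, a classical class I gene, with 28730 in Flox/Flox against 26749 in L-Lpcat3 KO (-0.10), and H2-Q10, which hepatocytes secrete, with 28032 and 24631 (-0.19). Over the 15 measured probe sets of heavy chains, 14 were below 0, against 49.3% of all probe sets measured. Of the 15, 8 belong to H2-D1 and 4 to H2-K1, so they are largely repeated readings of the same genes. Of the 9 measured probe sets that list several heavy chains, 5 were below 0. Among the 15, 2 were at least 1.5-fold lower, neither the brightest of its gene, against 3.62% of all probe sets. One belongs to H2-K1 (6501 and 3959, log2 ratio -0.72) and the other to H2-D1 (218 and 138, -0.66). Another probe set of H2-K1 ran the other way (775 and 904, 0.22). These genes are near-identical copies, so single signals are uncertain. Other proteins that pair with β2-microglobulin had a median of 0.03, with Cd1d1 (0.15) and Hfe (0.05) above 0 and Mr1 (-0.18) below it, while Fcgrt was at 0.00. A second probe set of Cd1d1, about as bright, ran the other way (13090 in Flox/Flox against 11863 in L-Lpcat3 KO, -0.14). So did the dimmer probe set of Hfe (-0.07), so the direction of both genes depends on the probe set.

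Chaperones and peptidases that act along the pathway had a median near 0 (-0.02), with log2 ratios from -0.22 to 0.53. Of 11 measured, 7 were below 0 and none was 1.5-fold apart. The highest were the peptidase genes Thop1 (128 in Flox/Flox against 184 in L-Lpcat3 KO, 0.53) and Blmh (1457 and 1871, 0.36). A dimmer probe set of Blmh was at -0.06. The brightest were Calr (19716 and 18104, log2 ratio -0.12) and Canx (17208 and 14790, -0.22), the lectin chaperones calreticulin and calnexin that hold class I molecules during folding.

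Transcription factors of the class I genes were on balance slightly lower. Of 12 measured, by the brightest probe set of each, 9 were below 0, none was 1.5-fold apart, and the median was -0.11. Probe sets of some of these genes differed in sign. Rfxank was at -0.29 by its brightest, and at 0.25 and 0.73 by others. The one at 0.73 was past 1.5-fold and below the floor in Flox/Flox. Creb1 was at -0.05, -0.16 and 0.25, and Rfxap at 0.09 and -0.11. Nlrc5, the transactivator of class I genes, was 1084 in Flox/Flox against 810 in L-Lpcat3 KO (1.34-fold lower), the lowest log2 ratio of this list (-0.42). Irf1, an interferon-induced factor that acts on Tap1 and Psmb9, was 938 and 827 (-0.18). The bright members Irf2 (0.02) and Rela (-0.07) lay near 0. Among interferon receptors and signalling genes the median was -0.01 over 10 measured genes, and Usp18, itself interferon-induced, was the 1 past 1.5-fold (808 and 473, -0.77). Ifnar2 (-0.08) and Jak1 (-0.05) were the brightest of that list. Its 2 genes below the floor in both pools, named after their values were seen, were Ifng (1.80 and 1.24) and Socs1 (48.1 and 57.1).

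The rest of the proteasome lay on both sides of 0. Over 31 measured catalytic, other 20S and 19S subunits, by the brightest probe set of each, 13 had a log2 ratio below 0 and 18 above. None was 1.5-fold apart, and the median was 0.03. The brightest 20S subunits were Psma3 (0.03) and Psmb4 (-0.11), and the brightest 19S subunits Psmd6 (0.07) and Psmd11 (-0.20). The next brightest probe sets of Psmb4 and Psmd6 had the opposite sign (0.11 and -0.11), and that of Psmd11 was at 0.01. Other probe sets were past 1.5-fold. Those of Psmc4 (3263 in Flox/Flox against 1991 in L-Lpcat3 KO, -0.71) and Psmb1 (-0.66 and -0.86) were lower. That of Psma1 was higher (0.59, below the floor in Flox/Flox). Of 9 other regulators and assembly factors, Psmg3, an assembly chaperone of the 20S core, was the 1 past 1.5-fold, with 1221 in Flox/Flox against 565 in L-Lpcat3 KO (2.16-fold lower) by its 1 measured probe set. Psme4 (0.11), another activator cap, and Pomp (-0.12), the maturation protein of the core, were the brightest.

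Groups close to the class I pathway differed in size and direction. Of 9 measured interferon-inducible GTPases, which act against microbes inside cells, 9 were below 0 and 7 were at least 1.5-fold lower, with a median of -0.72. The lowest log2 ratios were those of the guanylate-binding protein genes Gbp2 (500.3 and 156, -1.68) and Gbp6 (1265 and 396, -1.68), followed by Ifi47 (2934 and 1389, -1.08) and Igtp (-0.87). The 2 less than 1.5-fold apart were Iigp1, by far the brightest of the list (21534 and 17402, -0.31), and Gbp3 (394 and 315, -0.32). By fold, Iigp1 and Gbp3 (1.24-fold and 1.25-fold lower) lay close to Psmb8 (1.26-fold lower). MHC class II genes, which present peptides from outside the cell, had a median of 0.05, with 2 of 7 below 0, among them H2-Aa (-0.08) and the protease gene Ctss (-0.23). The other measured probe sets of H2-Aa were above 0 (0.21 and 0.10), so its direction depends on the probe set. No test of these differences between lists was possible with 1 array for each genotype.

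**Figure D3:**
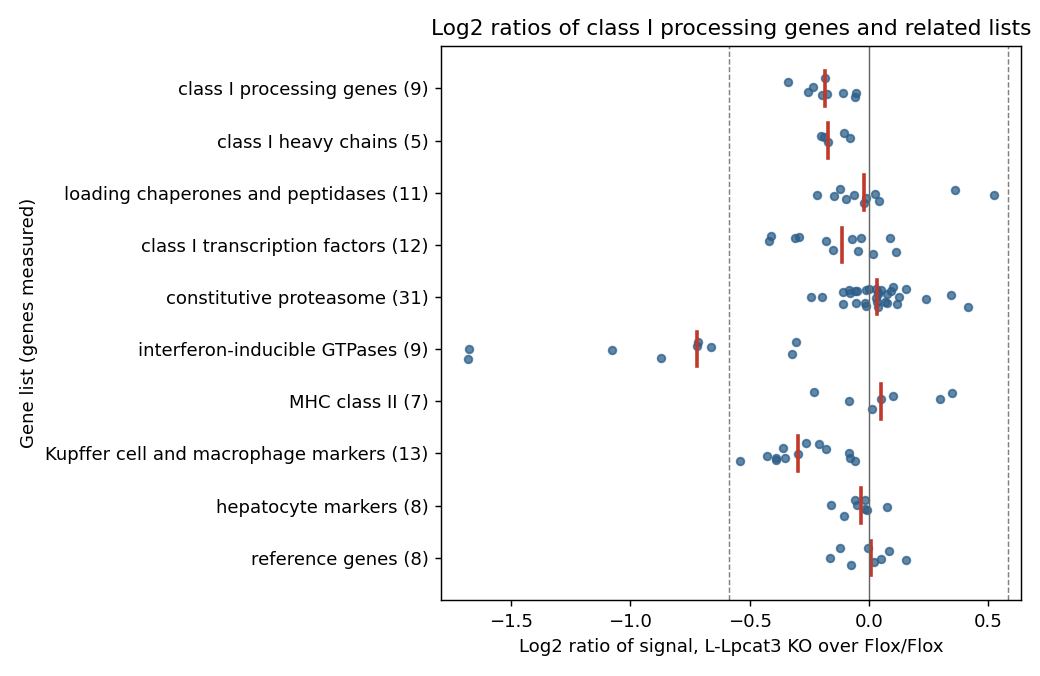
Log2 ratio of signal (L-Lpcat3 KO against Flox/Flox, x axis) for the measured genes of 10 lists (y axis, number of genes in parentheses), 1 point per gene by its brightest probe set, with red bars at the medians and dashed lines at 1.5-fold. Class I processing genes (median -0.18) and heavy chains (-0.17) lie below 0 within 1.5-fold, the GTPases (-0.72) lie lower, and the constitutive proteasome (0.03) and MHC class II (0.05) lie around 0.

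Markers of macrophages moved in the same direction as the class I genes. All 13 markers of Kupffer cells and macrophages had log2 ratios below 0 (median -0.30, from -0.54 to -0.06), none was 1.5-fold lower and none was below the floor. The brightest were Mpeg1 (2969 and 2269, -0.39) and Csf1r (3083 and 2921, -0.08). The summed signal of the 13 was 16065 in Flox/Flox against 13614 in L-Lpcat3 KO. Hepatocyte markers had a median of -0.03 with 7 of 8 below 0 (summed signal 330699 and 322803), and the brightest, Apoa1 and Serpina1b, had log2 ratios of -0.05 and -0.02. Other probe sets of Apoa1 (0.06, 0.01 and 0.07) and Serpina1b (0.04) were above 0, and those of Ttr ran from -0.19 to 0.17. The count of hepatocyte markers below 0 thus depends on the probe set. Sinusoidal endothelial markers had a median of 0.22 with 3 of 10 below 0 (summed signal 9075 and 10304), and their brightest, Clec4g and Fcgr2b, had log2 ratios of 0.23 and 0.22. Of 12 markers of T and NK cells, 8 were below the floor in both pools, the T cell receptor chains Cd3d, Cd3e and Cd3g among them. The other 4 were dim, with a median of -0.17 and a summed signal of 527 and 443, and no common direction is read from them. Il2rb was past 1.5-fold lower (141 in Flox/Flox against 60.8 in L-Lpcat3 KO, the latter below the floor). Cd8a was 155 and 123 (-0.33) by its brightest probe set and 82.7 and 84.7 (0.04) by another. Prf1 was 175 in both (0.00), and Gzma was 56.2, below the floor, and 83.8 (0.13). The part of these cells in the class I differences was not tested. Reference genes had a median of 0.01, with the brightest, Rplp0 and Actb, at -0.12 and -0.08.

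The alternatives to scaling, floor and gene summary left every one of the 9 genes except Erap1 below 0 throughout. Psmb8 ran from -0.34 to -0.32 and Psmb10 from -0.26 to -0.24, while Erap1 ran from -0.20 to 0.24.

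**Figure D4:**
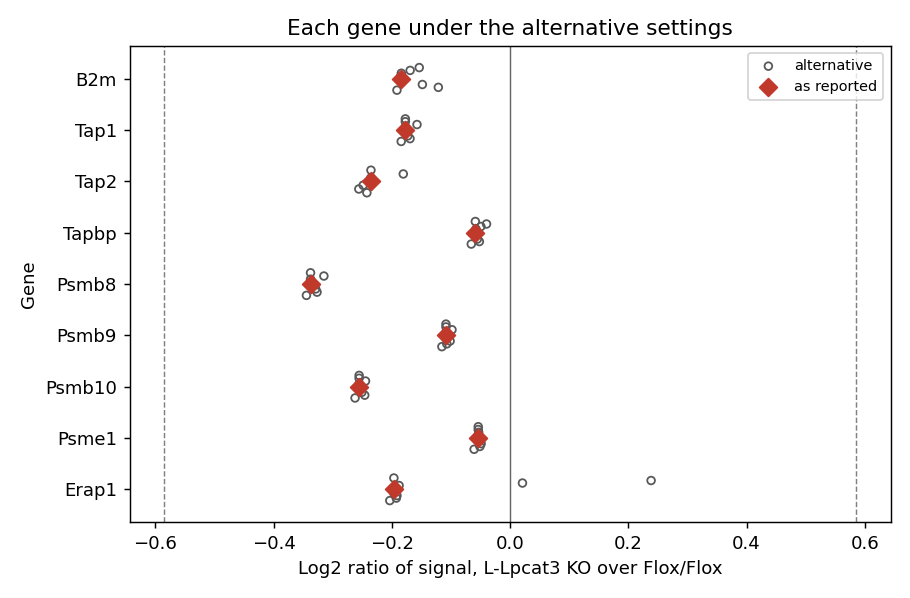
Log2 ratio of signal (L-Lpcat3 KO against Flox/Flox, x axis) of 9 class I processing genes (y axis) as reported (red diamonds) and under each alternative setting that gives a value (open circles); dashed lines mark 1.5-fold. All circles lie near their diamond except for Erap1, which moves to 0.02 as a mean over probe sets and to 0.24 by its second brightest probe set.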

How the data were processed

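The authors deposited 1 signal intensity for each of 45101 probe sets on each of 2 arrays. The submitters' notes name MAS5, which corrects background and summarises probe pairs into a linear value. Its version was not given in the sources read, and the methods name GeneSpring GX. Each array's mean signal without its lowest and highest 2% was 500.0, so both had been scaled to a common level. By the array's annotation (symbols brought up to date with RefSeq), 34945 probe sets had 1 gene, 932 listed several and 9160 were unnamed here. The precision is limited by having 1 array per genotype.

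Lower signals were set to a floor of 76.4, the median over both arrays. Each gene took the log2 ratio of its brightest measured probe set. Of 20 probe sets for 13 genes of other tissues, used to gauge background, 10% of signals exceeded the floor. Genes were counted at 1.5-fold; no test was run. The genes named were all class I processing genes, Lpcat3, Nlrc5, Irf1, the constitutive catalytic subunits and, from each other list whose ratios are given, up to 4 genes past 1.5-fold and the 2 brightest; others were added to describe counts and probe sets. The members and lists were chosen with earlier results of these data known. Alternatives covered scaling (median centring, quantile, loess with a span of 0.3), the floor (25th or 75th percentile, none, or a pseudocount), and the gene summary. The scripts were tested on simulated data. Python 3.11.15, numpy 2.4.6, pandas 2.3.3, statsmodels 0.14.6 and matplotlib 3.10.9 were used.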

Additional observations from a re-analysis of the deposited data

How the results depend on the processing

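The median log2 ratio of the class I processing genes stayed below 0 in all 11 alternatives run. It moved by over 0.1 in 1, to -0.0399 with the second brightest probe set, which only B2m, Tapbp and Erap1 have, and there 2 of 3 genes were below 0 against 9 of 9 as reported. With 1 probe set counted as Psme2 although it also lists Psme2b, a choice made after seeing the data, as was counting genes below 0 under each setting, 9 of 10 genes were below 0. No gene was 1.5-fold lower in the 10 alternatives for which this was counted. Of the probe sets, 1 was at least 1.5-fold lower after lowering the floor to the 25th percentile and 1 with no floor, both times the dim second probe set of Psmb8. Under these settings 8.56% and 13% of all genes were 1.5-fold lower, and the share of all probe sets was not counted. Probe sets 1.5-fold higher were not counted either. The 3 dim probe sets of Tap1 had higher signals in L-Lpcat3 KO (13.7 and 55.4, 12.9 and 38.0, 3.08 and 8.22 in Flox/Flox and L-Lpcat3 KO). The differences between immunosubunits and their counterparts kept their sign, from -0.33 to -0.30 for Psmb8, -0.09 to -0.08 for Psmb9 and -0.42 to -0.40 for Psmb10. Medians ran from -0.21 to -0.13 for heavy chains and from -0.01 to 0.04 for the constitutive proteasome. No paired analysis was possible because each genotype has 1 array, and for the same reason none could be left out.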

Other observations

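Another 11 probe sets list several heavy chain genes and took no part in the counts. Of these, 9 were measured, 5 of them had a log2 ratio below 0, none was 1.5-fold lower, and their log2 ratios ran from -0.50 to 0.17.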
